A study of Gallus gallus with 36 samples.

Results

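The change in transcript levels of the chicken retina over the first 4 h of the subjective day was measured by setting 3 retina libraries at CT4 against 3 retina libraries at CT0. Circadian time (CT) counts hours from the start of the subjective day, the phase in which the lights would have been on. The rule for the members used only tissue and circadian time, and it took 6 of the 36 libraries of the series. Earlier results of these data were known when this comparison was chosen. The other libraries are retinas at CT8, CT12, CT16 and CT20 and pineal glands at all 6 times, again with 3 libraries per group.

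By their labels, the groups differ only in the hour. The birds were domestic chickens from Hyline International, 1 day old on arrival, kept on alternating 12 h light and dark phases for 9 days and then held in the dark from day 10, with no genotype or drug treatment labelled. At CT4 and at CT0 each library was made from a single retina. Nothing in the labels says that each library of a group is from a different bird. The p-values therefore measure only how far these samples scatter, and that scatter may be technical.

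The vertebrate clock is a feedback loop in which CLOCK or NPAS2, paired with ARNTL (BMAL1), switches on the period and cryptochrome genes, whose proteins then repress it. A further loop through NR1D and ROR nuclear receptors acts on ARNTL. In the chicken retina the photoreceptors hold such a clock, and melatonin synthesis, visual sensitivity and photoreceptor maintenance are known to follow it in constant darkness.

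Levels are given as CPM, the estimated count of a transcript scaled to the size of its library, and are compared between libraries, not between genes. Totals were 5393030 to 7102938 counts per library at CT4 and 6151924 to 7418485 at CT0. The tissue label was checked against marker genes: the arrestin SAG had a median of 594 CPM in retina libraries and 1.98 CPM in pineal libraries, and pinopsin (OPNP) a median of 1.0 CPM in retina and 581 CPM in pineal libraries. Of the 16 sets of cell type markers, lymphocyte markers summed to 0.572 to 1.68 CPM at CT4 and 1.09 to 1.22 CPM at CT0, lens markers to 9.89 to 13.7 CPM at CT4 and 9.12 to 12.8 CPM at CT0, and striated muscle markers to 6.01 to 8.58 CPM at CT4 and 5.44 to 7.76 CPM at CT0. Pigment epithelium markers were more abundant and uneven, at 711 to 1046 CPM at CT4 and 560 to 1357 CPM at CT0. Blood cell markers summed to 38.4 to 55.2 CPM at CT4 and 30.5 to 79.8 CPM at CT0. None of the tested markers passed the test described next. In a whole retina, fewer cells of a type and less RNA per cell cannot be told apart.

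Of 14956 transcripts tested, 44 (0.294%) differed between CT4 and CT0 at an adjusted p under 0.05 in edgeR's quasi-likelihood test with Benjamini-Hochberg adjustment. Higher levels at CT4 were found for 35 (0.234%) and lower levels for 9 (0.0602%). By known roles, they include genes of the core clock, of photoreceptor gene control, phototransduction, cilia, synapses and fat storage. Most of this grouping was made after the calls were known. Of the 44, 34 lost the call in at least 1 fit that left out 1 of the 6 libraries. Changes were small: absolute log2 fold changes ran from 0.24 to 1.45, and 3 transcripts, BLIMP-1, PPEF2 and NR2E3, changed by 2-fold or more. The median change of all tested transcripts was 0.00 on the log2 scale, with a median standard error of 0.138. In all 44 the CT4 and the CT0 libraries did not overlap, which held for 12.6% of all tested transcripts. With no adjustment 1061 transcripts (7.09%) had a p under 0.05. Of the same 14956 transcripts DESeq2 called 113 and limma on log2(FPKM + 0.1) called 51.

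**Figure D1:**
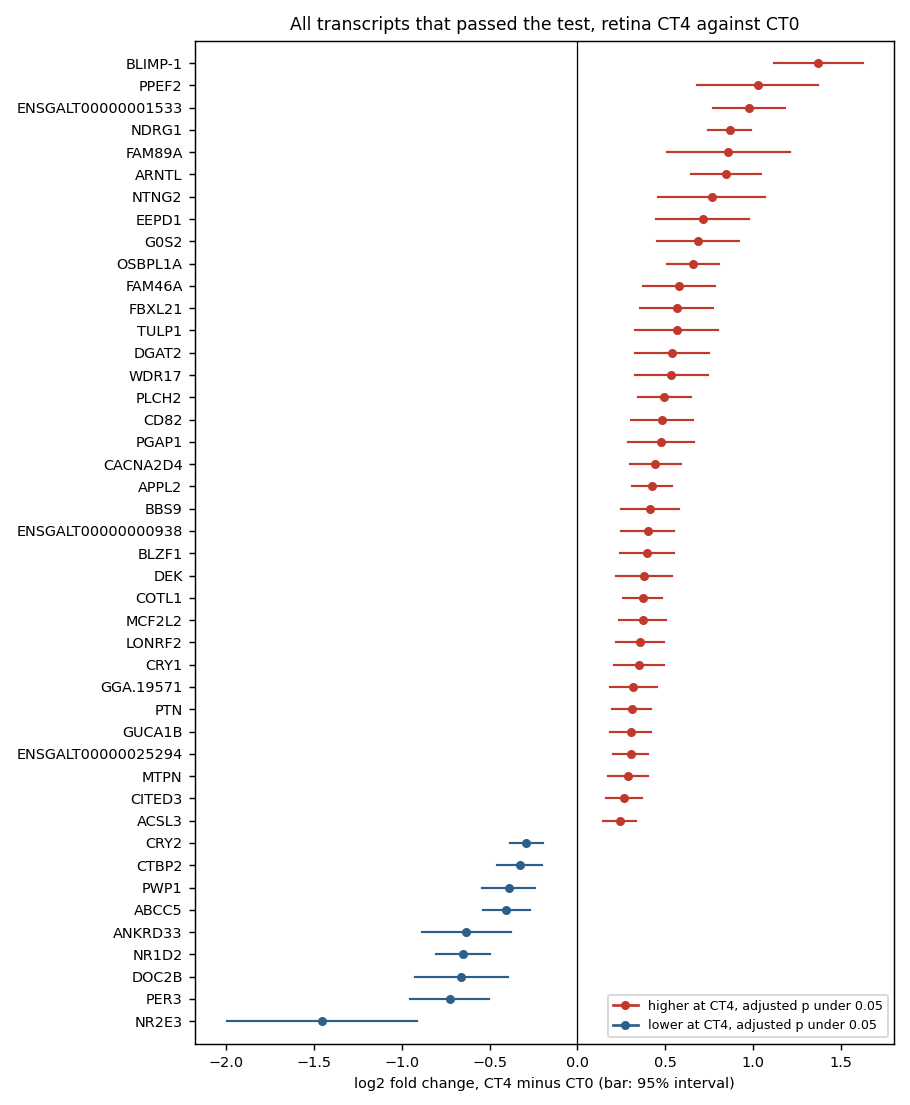
Each row is 1 of the 44 transcripts that passed the test in the retina. Points are log2 fold changes (CT4 minus CT0) and bars are 95% intervals. The 35 higher transcripts (red) run up to 1.37 for BLIMP-1 and the 9 lower transcripts (blue) down to -1.45 for NR2E3.

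The clock genes moved in both directions. Of 22 tested members of 3 clock lists, 3 were higher (ARNTL, CRY1 and FBXL21) and 3 were lower at CT4 (PER3, NR1D2 and CRY2), against 0.294% called over all transcripts, and their median log2 fold change was 0.03. ARNTL, the partner of CLOCK that binds E-box sites (chromosome 5, 8501669 to 8522873 as the deposited table gives it), had 97.8, 87.7 and 93.8 CPM at CT4, against 51.5, 49.1 and 54.9 CPM at CT0. Every CT4 library was above every CT0 library, by a log2 fold change of 0.85 ± 0.093 (SE, adjusted p = 5.6e-04 in edgeR's test). Its 95% interval was 0.65 to 1.05.

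NR1D2, a nuclear receptor (REV-ERB beta) that represses ARNTL transcription (chromosome 2, 37194558 to 37218099), ran the other way. It had 315, 337 and 313 CPM at CT4 and 524, 503 and 486 CPM at CT0. The groups were far apart for their spread, with a log2 fold change of -0.65 ± 0.072 (SE, edgeR adjusted p = 5.6e-04). A second, less counted NR1D2 transcript, at a mean of 90.3 CPM, changed by -0.16 and did not pass the test.

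PER3, a period gene whose protein takes part in the repressor complex (chromosome 21, 265014 to 280881), had 174, 236 and 191 CPM at CT4, against 354, 305 and 334 CPM at CT0. No CT4 library reached the lowest CT0 library, and the log2 fold change was -0.73 ± 0.106 (SE, edgeR adjusted p = 0.0087). PER2, the other tested period gene, had 305, 329 and 303 CPM at CT4 and 353, 349 and 298 CPM at CT0. These groups overlapped, with a log2 fold change of -0.10 and a 95% interval of -0.29 to 0.10.

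The cryptochromes, flavoproteins of the repressor complex, split. CRY1 (chromosome 1, 55631782 to 55667683) had 185, 210 and 176 CPM at CT4 and 160, 151 and 137 CPM at CT0, a log2 fold change of 0.35 (edgeR adjusted p = 0.0350). CRY2 (chromosome 5, 26106138 to 26126804) had 441, 464 and 454 CPM at CT4 and 576, 553 and 531 CPM at CT0, a log2 fold change of -0.29 (edgeR adjusted p = 0.0094). CRY4, a cryptochrome that mammals lack, had a log2 fold change of -0.07 with a 95% interval of -0.40 to 0.25. CRY1 was thus higher and CRY2 lower at CT4 in libraries that did not overlap. A less counted CRY1 transcript, at a mean of 81.5 CPM, changed by 0.26 and did not pass (edgeR adjusted p = 0.660). The CRY1 call ended without CT4 replicate 1 or 2 or CT0 replicate 2 or 3, where its adjusted p rose to at most 0.218, and the CRY2 call ended without CT4 replicate 1, at 0.0666.

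FBXL21, an F-box protein that in mouse binds cryptochromes and affects their breakdown, had 48.2, 51.1 and 47.5 CPM at CT4 and 36.3, 34.6 and 28.0 CPM at CT0. Its log2 fold change was 0.57 (edgeR adjusted p = 0.0262), and the call held only when CT0 replicate 1 was the library left out, reaching 0.113 otherwise.

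Of the other 16 clock list members, 5 had an unadjusted edgeR p under 0.05, against 7.09% over all transcripts. None of the 16 passed edgeR's test or limma's, and DESeq2 called NFIL3. The largest values among them were those of NFIL3, a repressor at D-box sites, at 0.44 (edgeR adjusted p = 0.275), NPAS2, which can replace CLOCK, at 0.43 (adjusted p = 0.405) and BHLHE40, a repressor at E-box sites, at -0.30 (adjusted p = 0.462). CLOCK itself had 62.9, 69.8 and 77.5 CPM at CT4 and 62.8, 64.5 and 69.0 CPM at CT0, with a 95% interval of -0.07 to 0.27. The kinases CSNK1D and GSK3B and the F-box gene BTRC had changes of 0.03, -0.00 and 0.03. For CSNK1E the interval ran from -1.06 to 1.11, so its change was poorly measured.

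**Figure D2:**
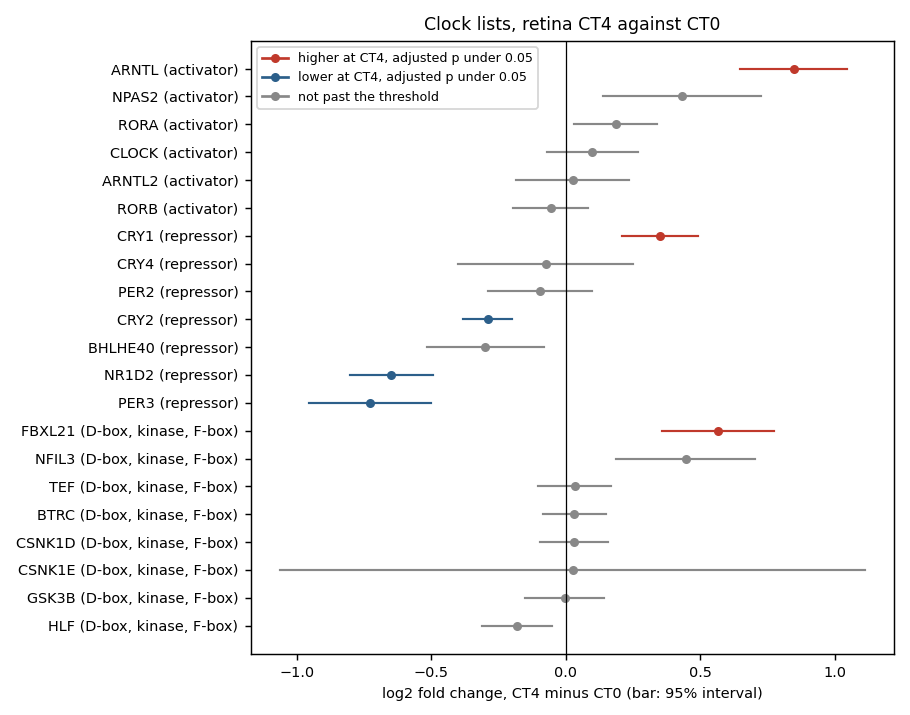
Log2 fold changes (CT4 minus CT0, points) with 95% intervals (bars) of 21 of the 22 tested clock list members in the retina, by list. ARNTL, CRY1 and FBXL21 were higher and PER3, NR1D2 and CRY2 lower at CT4, and the intervals of CSNK1D, GSK3B, BTRC, CLOCK, RORB, ARNTL2, TEF, PER2, CRY4 and CSNK1E include 0.

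The genes of melatonin synthesis did not pass the test over these 4 h. AANAT, the enzyme that sets the timing of melatonin production, had 141, 132 and 153 CPM at CT4 and 153, 155 and 159 CPM at CT0, a log2 fold change of -0.13 with a 95% interval of -0.28 to 0.02. TPH1, the first enzyme, changed by 0.11 (interval -0.42 to 0.64), and ASMT, the last, by 0.02 (interval -0.27 to 0.30). DDC, also on the melatonin list, changed by -0.39, with an interval of -0.74 to -0.05 that excludes 0. Its unadjusted edgeR p was 0.0282 and its adjusted p 0.621. None of the 10 tested members of the melatonin list passed in edgeR, DESeq2 or limma, and their median was 0.07. Of the 10, 2 had an unadjusted edgeR p under 0.05, against 7.09% over all transcripts.

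Among 10 tested photoreceptor transcription factors, 1 was higher and 1 lower, against 0.294% called over all transcripts, and these had the largest changes in each direction of all transcripts called. BLIMP-1 (PRDM1), a repressor that in mouse keeps young photoreceptors from becoming bipolar cells (chromosome 3, 70989005 to 71009802), had 26.2, 23.9 and 30.3 CPM at CT4, against 11.02, 10.2 and 9.84 CPM at CT0. All CT4 libraries stood far above all CT0 libraries, and the fitted ratio was 2.59-fold (log2 fold change 1.37 ± 0.118 SE, edgeR adjusted p = 6.1e-05).

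NR2E3, a nuclear receptor that in mouse promotes rod genes and represses cone genes (chromosome 10, 769616 to 773296), had 21.6, 31.7 and 27.5 CPM at CT4 and 52.8, 57.6 and 111 CPM at CT0. The groups did not overlap, but CT0 replicate 3 stood well above the other CT0 libraries. The log2 fold change was -1.45 ± 0.254 (SE, edgeR adjusted p = 0.0276). The call ended without that library, at an adjusted p of 0.0805, and also without CT4 replicate 1, 2 or 3, reaching at most 0.164.

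The same CT0 replicate 3 was the highest of the 6 libraries for some rod genes but not for others, and none of them passed the test. SAG had 534, 568 and 464 CPM at CT4 and 530, 747 and 1125 CPM at CT0. PDE6G, the inhibitory subunit of rod phosphodiesterase, had 22.9, 26.1 and 16.4 CPM at CT4 and 41.3, 51.7 and 91.5 CPM at CT0 (log2 fold change -1.50, edgeR adjusted p = 0.0621). CNGB1, a subunit of the rod channel, ran the other way, with 77.2, 57.7 and 73.9 CPM at CT4 and 49.4, 48.9 and 57.9 CPM at CT0. CNGA1, GNB1 and SLC24A1 were highest in a CT4 library, and the rod list of 12 tested genes had 5 positive changes and a median of -0.03. The rod markers SAG, PDE6B and CNGA1 summed to 595 to 776 CPM at CT4 and 725 to 1466 CPM at CT0, so the ranges overlapped, and none of the 3 was at 0. In the same library RPE65 of the pigment epithelium was also highest, at 258 CPM, against 104 and 155 CPM in the other CT0 libraries. The part of this library's rod or pigment epithelium content in the NR2E3 value was not tested.

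ANKRD33, an ankyrin repeat protein that in mouse represses photoreceptor genes, had 29.0, 27.8 and 33.5 CPM at CT4 and 45.4, 46.0 and 48.9 CPM at CT0. The groups were clearly separate, with a log2 fold change of -0.63 (edgeR adjusted p = 0.0345). Leaving out any 1 of the 6 libraries took it past the threshold, to an adjusted p of 0.0536 to 0.180.

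Of 12 tested members of the cone phototransduction list, 2 were higher and none lower at CT4 in edgeR's test, against 0.294% called over all transcripts, with a median of -0.07. Of these 12, 8 had an unadjusted edgeR p under 0.05, against 7.09% over all transcripts. The calls by limma were 2, against 51 of all 14956. DESeq2 called 5 (PPEF2, GUCA1B, OPN1MSW, ARR3 and GRK7), against 113 of all 14956. Of the 5, ARR3 and GRK7 had changes of -0.24 and -0.38. None of 12 tested members of the rod list passed. On the rod list 6 had an unadjusted edgeR p under 0.05, limma called 0, and DESeq2 called 2 (PDE6G and CNGB1). The values over all transcripts are those just given. The libraries are whole retinas, and they do not show in which photoreceptors a list member is expressed. A call on either list therefore does not place a change in cones or in rods. Of the 4 tested cone markers, none passed edgeR's test and 1 had a positive change. PPEF2, a photoreceptor phosphatase whose fly relative acts in the shutoff of the light response (chromosome 4, 51445892 to 51460702), had 61.3, 41.6 and 48.5 CPM at CT4, against 21.6, 25.7 and 27.4 CPM at CT0. Its log2 fold change was 1.03 ± 0.162 (SE, edgeR adjusted p = 0.0146), a ratio of 2.04-fold. The call ended without CT4 replicate 1 or CT0 replicate 1 or 2, with adjusted p of at most 0.0906.

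GUCA1B, a calcium-sensing activator of the guanylate cyclase that restores cyclic GMP after light, had 210, 216 and 204 CPM at CT4 and 162, 169 and 178 CPM at CT0. Its change was smaller, 0.30 on the log2 scale (edgeR adjusted p = 0.0317), and its adjusted p was 0.0585 to 0.164 without any 1 of the 6 libraries. OPN1MSW, a cone opsin, had 581, 402 and 551 CPM at CT4 and 315, 381 and 259 CPM at CT0. Its groups did not overlap, yet it missed the threshold (log2 fold change 0.69, edgeR adjusted p = 0.0634), while DESeq2 called it. Melanopsin OPN4, an opsin of non-visual light detection, changed by 0.41 (edgeR adjusted p = 0.104), while DESeq2 called it. None of 7 tested non-visual opsins passed in edgeR or limma. Among the 7 there was 1 unadjusted edgeR p under 0.05, against 7.09% over all transcripts.

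**Figure D3:**
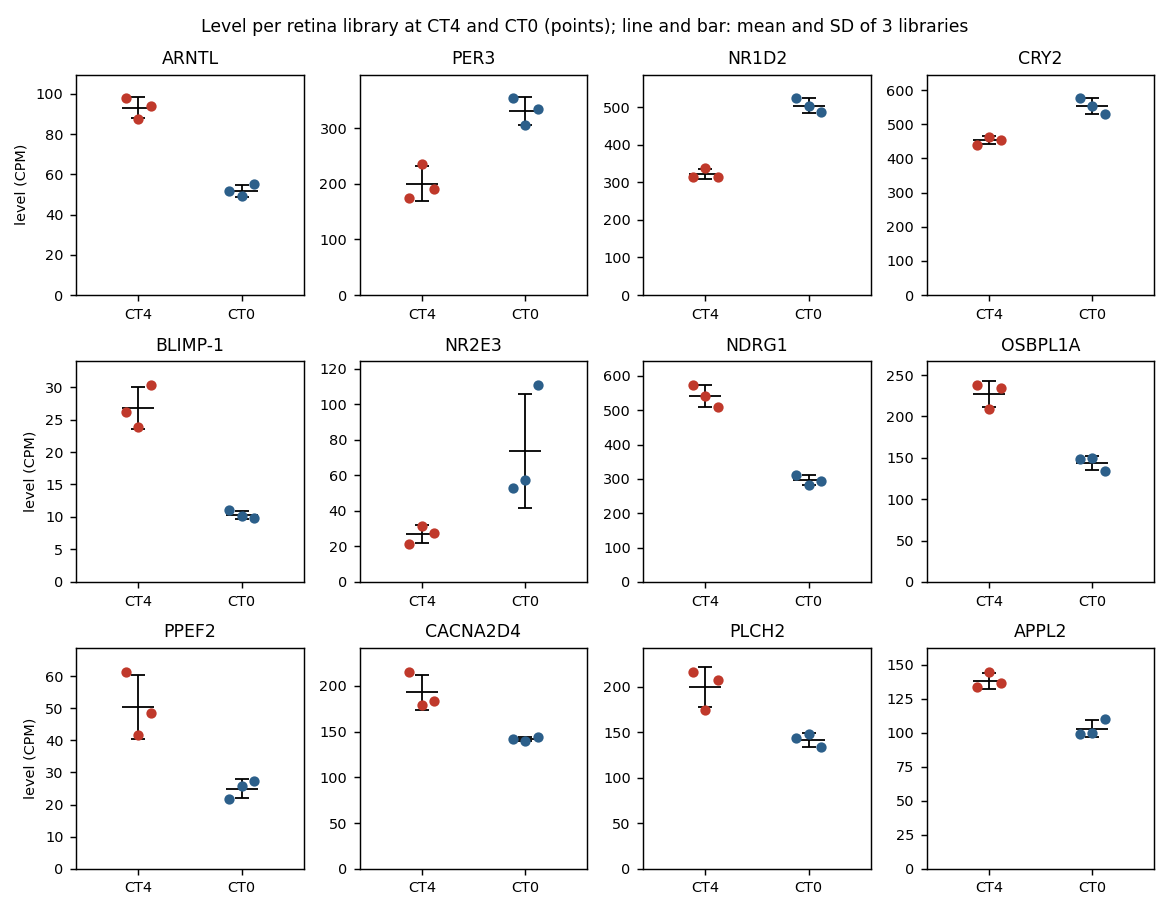
CPM of 12 transcripts in each retina library (points; mean and SD of 3 libraries as line and bar), with CT4 left of CT0 and each axis starting at 0. The groups do not overlap in any panel, and CT0 replicate 3 of NR2E3, at 111 CPM, lies far above the other CT0 libraries.

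Transport within cells, in cilia or across membranes was represented by 3 further transcripts, grouped by function after the calls were known. TULP1, needed in mouse for protein transport to the outer segment, changed by 0.56 (edgeR adjusted p just under the threshold of 0.05). A more abundant TULP1 transcript, at a mean of 33.4 CPM, changed by 0.85 and missed the threshold (edgeR adjusted p = 0.0555). BBS9, a subunit of the BBSome coat complex of cilia, had 42.2, 43.7 and 42.2 CPM at CT4 and 32.6, 30.1 and 33.5 CPM at CT0 (0.41, adjusted p = 0.0345). Neither call held without any 1 of the 6 libraries, with adjusted p up to 0.178 for TULP1 and 0.188 for BBS9. ABCC5, an exporter of cyclic nucleotides and other organic anions, was lower, with 267, 278 and 277 CPM at CT4 and 353, 388 and 346 CPM at CT0 (-0.41, adjusted p = 0.0119). A more abundant ABCC5 transcript, at a mean of 1095 CPM, changed by 0.02, so with the transcripts summed ABCC5 did not pass. The ABCC5 call also ended without CT4 replicate 1 or CT0 replicate 2, at an adjusted p of at most 0.0888.

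CACNA2D4 rose and CTBP2 and DOC2B fell at CT4, genes with known roles at synapses that were brought together after the calls were known. CACNA2D4, the accessory subunit of the calcium channel at photoreceptor terminals (chromosome 1, 63106639 to 63218413), had 215, 179 and 184 CPM at CT4 and 142, 140 and 144 CPM at CT0, a log2 fold change of 0.44 ± 0.068 (SE, edgeR adjusted p = 0.0119). It was the single called member among 26 tested channels and pumps, against 0.294% called over all transcripts. Its adjusted p was 0.0659 without CT0 replicate 2. A less counted CACNA2D4 transcript, at a mean of 50.8 CPM, changed by 0.17 and did not pass (edgeR adjusted p = 0.933). CTBP2, whose gene also encodes the ribbon protein RIBEYE, had 105, 111 and 119 CPM at CT4 and 131, 138 and 152 CPM at CT0 (-0.33, adjusted p = 0.0345). It was the single called member among 20 tested synaptic vesicle and ribbon genes, whose median was -0.02, against 0.294% called over all transcripts.

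DOC2B, a calcium sensor of vesicle fusion, had 32.9, 45.5 and 31.3 CPM at CT4 and 51.7, 57.7 and 63.5 CPM at CT0 (-0.66, edgeR adjusted p = 0.0350). CPLX4, a complexin of ribbon synapses, did not pass, at -0.25 (adjusted p = 0.104), while DESeq2 called it. The CTBP2 call ended without CT4 replicate 1 or 2 or CT0 replicate 2 or 3 (adjusted p at most 0.180), and the DOC2B call without CT4 replicate 1 or 3 or CT0 replicate 2 or 3 (at most 0.219). NTNG2, a membrane-anchored netrin of neuronal contacts, was higher by 0.76 (adjusted p = 0.0345), a call lost without any 1 of the 6 libraries (at most 0.180).

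Genes of neutral fat and sterol handling were higher at CT4 in 4 cases, again grouped after the calls were known. OSBPL1A, an oxysterol-binding protein that links late endosomes to other membranes (chromosome 2, 106446138 to 106517016), had 238, 209 and 235 CPM at CT4 and 148, 150 and 134 CPM at CT0. Its log2 fold change of 0.66 ± 0.069 (SE, edgeR adjusted p = 3.8e-04) held without any 1 of the 6 libraries. G0S2, an inhibitor of the lipase that opens fat stores, had 22.6, 23.7 and 25.2 CPM at CT4 and 14.96, 14.6 and 14.9 CPM at CT0 (0.69, adjusted p = 0.0160).

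DGAT2, which makes triglyceride, was higher by 0.54 (edgeR adjusted p = 0.0345) and ACSL3, which activates long-chain fatty acids, by 0.24 (adjusted p = 0.0313). The G0S2 call ended without CT4 replicate 3 or any 1 CT0 library (at most 0.0751). The DGAT2 and ACSL3 calls held only when CT4 replicate 2 was the library left out, reaching 0.173 for DGAT2 and 0.164 for ACSL3. On the list of fatty acid and lipid genes, G0S2 was the 1 called member of 21 tested, against 0.294% called over all transcripts. Of the 21, 11 had a positive change, and changes ran from -0.96 to 0.69 (G0S2) with a median of 0.04. The list summed to 1499 to 1675 CPM at CT4 and 1638 to 1833 CPM at CT0. DESeq2 also called FASN and ELOVL2, whose directions are not given here. None of 18 tested cholesterol synthesis genes passed in edgeR or limma. An unadjusted edgeR p under 0.05 was found for 6, against 7.09% over all transcripts. Of the 18, 2 had a positive change, and the median was -0.17. Their regulator SREBF2 changed by -0.28 (edgeR adjusted p = 0.219) and was the 1 gene of that list called by DESeq2.

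The smallest p-value of all was that of NDRG1, a protein of stress responses and of myelin maintenance in peripheral nerve (chromosome 2, 147651308 to 147676577). It had 574, 541 and 508 CPM at CT4, against 311, 284 and 295 CPM at CT0. The groups were separated by far more than their spread, with a log2 fold change of 0.87 ± 0.057 (SE, edgeR adjusted p = 2.9e-06). The summed oligodendrocyte markers were 282 to 494 CPM at CT4 and 353 to 610 CPM at CT0, with none of their 3 tested members higher at CT4. The part of oligodendrocyte content in the NDRG1 change was not tested.

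Of the other called transcripts, 9 encode proteins of signalling, the cytoskeleton, the cell membrane, the endosome or the Golgi, a grouping made after the calls were known and on no list. PLCH2, a phospholipase C, had 216, 175 and 207 CPM at CT4 and 143, 148 and 133 CPM at CT0 (0.49, edgeR adjusted p = 0.0083). APPL2, an adaptor on early endosomes, had 133, 145 and 136 CPM at CT4 and 98.7, 100 and 110 CPM at CT0 (0.42, adjusted p = 0.0024), and COTL1, which binds actin, rose by 0.37 (adjusted p = 0.00725). These 3 calls held without any 1 of the 6 libraries.

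The remaining members of that kind were less firm. CD82, a tetraspanin, rose by 0.48, PGAP1, which remodels lipid anchors of proteins, by 0.47, and BLZF1, a golgin, by 0.40. MCF2L2, a guanine nucleotide exchange factor, rose by 0.37, PTN, a secreted growth factor, by 0.31, and MTPN, which binds the actin capping protein, by 0.29. Their edgeR adjusted p-values were 0.0245 to 0.0347, and each exceeded 0.05 without at least 4 of the 6 libraries taken 1 at a time, with values up to 0.190.

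FAM46A, a poly(A) polymerase, had 96.1, 92.9 and 112 CPM at CT4 and 71.5, 68.7 and 61.5 CPM at CT0 (0.58, edgeR adjusted p = 0.0203). Among nuclear proteins, DEK, which binds chromatin, rose by 0.38, CITED3, a coactivator partner, by 0.26 and EEPD1, with an endonuclease domain, by 0.71, while PWP1, a nucleolar protein, fell by 0.39. FAM89A rose by 0.86, WDR17 by 0.54 and LONRF2 by 0.35. Adjusted p-values of these 7 were 0.0276 to 0.0491. Each of the 8 calls ended without at least 4 of the 6 libraries taken 1 at a time, with adjusted p up to 0.267 (DEK). Transcripts with no usable symbol make up the other 4 calls, and the strongest of them, ENSGALT00000001533 on chromosome 28, had 42.2, 38.8 and 45.9 CPM at CT4 and 21.4, 22.2 and 21.0 CPM at CT0 (0.98, adjusted p = 2.4e-04).

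Most other gene lists held no call. Among 450 tested members of all lists outside the clock, 5 were higher and 2 lower, all named above, against 0.294% called over all transcripts, and the median was -0.01. None of 11 tested immediate early genes passed in edgeR or limma, and 1 had an unadjusted edgeR p under 0.05. Over all transcripts 7.09% had such an unadjusted p. EGR1, a transcription factor induced by neuronal activity, had 74.8, 71.7 and 54.8 CPM at CT4 and 21.4, 21.2 and 15.7 CPM at CT0, but its log2 fold change of 1.78 had an edgeR adjusted p of 0.214 (DESeq2 called it). None of 12 tested mitochondrially encoded respiratory chain transcripts, 20 glycolysis genes, 18 endoplasmic reticulum chaperones or 10 dopamine genes passed in edgeR, DESeq2 or limma, with 0, 1, 1 and 0 unadjusted edgeR p under 0.05 in that order. Their medians were -0.08, 0.03, -0.06 and -0.01 in that order.

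The other retina times show where these hours lie in the daily course. Of the 35 transcripts higher at CT4, the mean was lowest at CT0 in 32 and highest at CT8 in 16 or CT12 in 15. It was highest at CT4 in 3 (FAM46A, ENSGALT00000025294 and MTPN) and at CT16 in 1 (PLCH2). Of the 9 lower transcripts, the mean was highest at CT0 in 7 and at CT20 in 2 (CRY2 and DOC2B), and lowest at CT8 in 6, at CT12 in 2 and at CT4 in 1 (DOC2B). Since the transcripts were called for their difference between CT4 and CT0, part of this pattern follows from the choice, and it is given as a description with no test.

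ARNTL had mean levels of 51.9, 93.1, 203, 188, 133 and 77.9 CPM at CT0, CT4, CT8, CT12, CT16 and CT20. PER3 mirrored it, with 331, 200, 83.9, 92.6, 138 and 239 CPM. NR2E3 had the widest range among the 44, with 73.7, 26.9, 13.0, 6.99, 12.1 and 41.2 CPM, a ratio of 10.5 between the highest and the lowest mean. BLIMP-1 ran opposite to NR2E3 over the first 8 h, with 10.4, 26.8, 56.0, 44.6, 28.6 and 15.2 CPM.

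**Figure D4:**
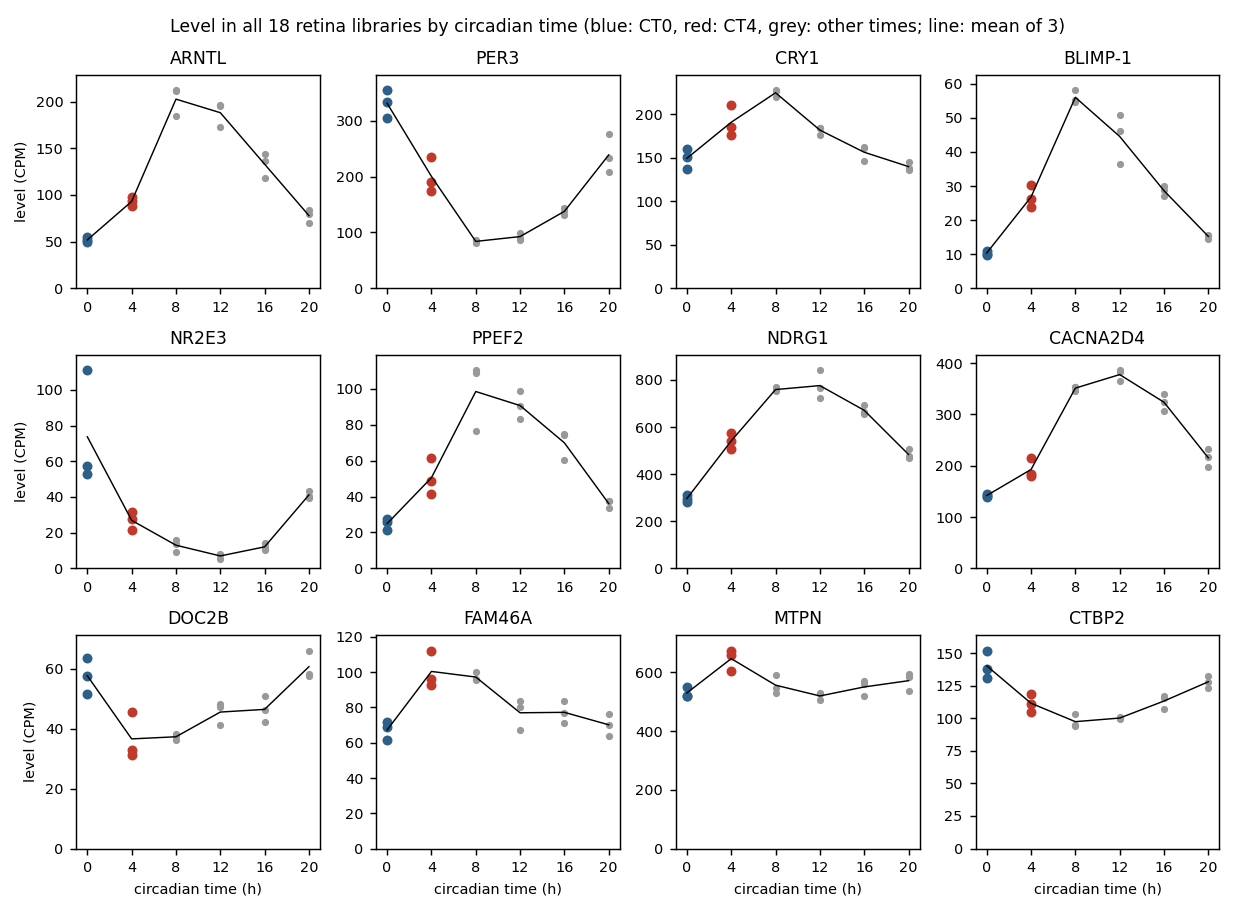
CPM of 12 transcripts in all 18 retina libraries by circadian time, with CT0 in blue, CT4 in red, other times in grey and the line through the means of 3 libraries. ARNTL goes on to 203 CPM at CT8 and PER3 to 83.9 CPM at CT8, while the means of FAM46A and MTPN are highest at CT4.

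The pineal gland of the same series was sampled at the same hours, from pools of 3 glands per library. In a fit of all 36 libraries, 40 transcripts (0.238% of 16831) were called in the retina and 367 (2.18%) in the pineal gland. Of these, 9 were called in both, 22.5% of the retina calls and 2.45% of the pineal calls, and all 9 changed in the same direction. Of the 44 retina transcripts, 12 were also called in the pineal gland, in the same direction, and 32 were not called there. Absence of a pineal call does not show that the tissues differ, so the difference was tested itself: 58 transcripts (0.345%) passed, 4 of which belong to the 44.

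NDRG1 was higher at CT4 in the retina by 0.87, while in the pineal gland it averaged 354 ± 24.4 CPM at CT4 and 331 ± 32.0 CPM at CT0 (SD, n = 3 each), a change of 0.10. The difference between the tissues was 0.77 (edgeR adjusted p = 1.2e-04). OSBPL1A likewise changed by 0.66 in the retina and by 0.05 in the pineal gland (difference 0.61, adjusted p = 0.0117). NR2E3 fell by 1.45 in the retina and changed by 0.34 in the pineal gland, where it did not pass (difference -1.79, adjusted p = 4.8e-04).

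CRY1 rose in both tissues, less in the retina, by 0.35 in the retina against 0.995 in the pineal gland (difference -0.64, edgeR adjusted p = 2.6e-04). ARNTL changed by nearly the same amount, 0.85 in the retina and 0.84 in the pineal gland, as did PPEF2, at 1.03 and 1.04. NR1D2 fell by 0.65 in the retina and by 1.15 in the pineal gland, a difference that did not pass (adjusted p = 0.556). BLIMP-1, at 4.89 ± 1.92 CPM at CT4 and 4.40 ± 1.06 CPM at CT0 in the pineal gland (SD, n = 3 each), missed the threshold for the difference (adjusted p = 0.0774). GUCA1B was close to 0 in the pineal gland, at 0.0906 ± 0.157 CPM at CT4 and 0.173 ± 0.150 CPM at CT0 (SD, n = 3 each), so its fitted pineal change of -0.85 was poorly measured.

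**Figure D5:**
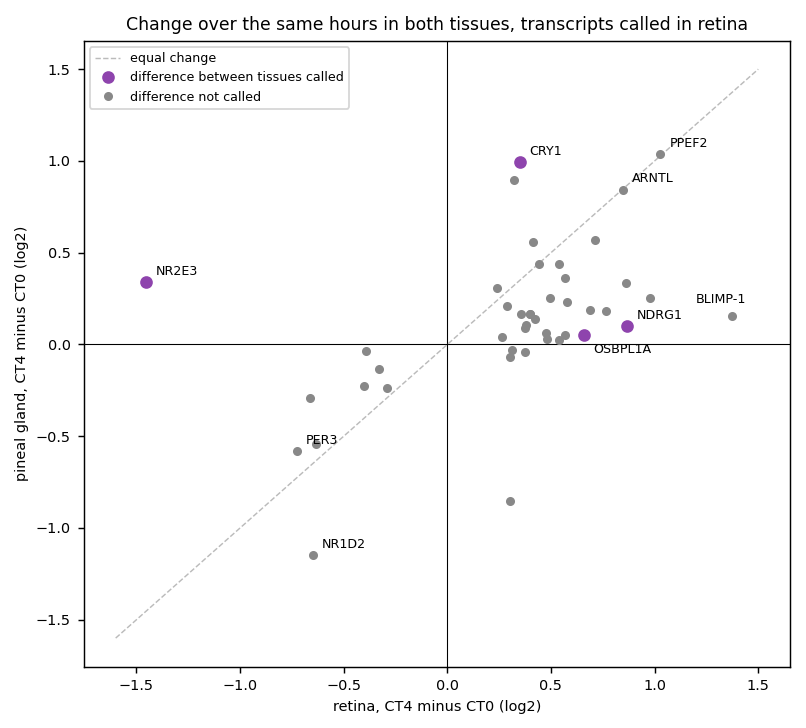
Log2 fold changes (CT4 minus CT0) of the 44 retina transcripts in the retina (x axis) and the pineal gland (y axis) from the fit of 36 libraries; the dashed line marks equal change. NDRG1, OSBPL1A, CRY1 and NR2E3 (purple) passed the test of the difference, and ARNTL and PPEF2 lie on the line.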

How the data were processed

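RNA of single retinas and of pooled pineal glands was extracted with TRIzol and an RNeasy kit and sequenced as Illumina libraries, per the labels' protocols. Trimmomatic, TopHat and Cufflinks are named without versions in the submitters' processing notes, and the genome build and use of strand are not given in the sources used here. The authors deposited estimated counts for 23352 Ensembl transcripts, 68.1% of them whole numbers, and FPKM values for the same transcripts, in which counts are set against both the length of the transcript and the depth. Counts of close paralogs and of overlapping or antisense genes are therefore uncertain. A few items are not reported here. Symbols came from the deposited table, with 16 transcripts renamed by RefSeq identifier. Some called genes had further tested transcripts, and not all of these are given.

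Estimated counts were rounded and tested with edgeR 4.0.16 in R 4.3.3 (TMM, filterByExpr by time, quasi-likelihood F test, 2-sided, Benjamini-Hochberg, threshold 0.05) over the 18 retina libraries with a mean per time. The tissue difference used all 36 libraries. The scripts were tested on simulated data. CPM used the TMM library sizes. Alternatives used limma 3.58.1 on log2(FPKM + 0.1) or log2(FPKM + 1), and DESeq2 1.42.0. Figures used matplotlib 3.10.9 under Python 3.11.15 (numpy 2.4.6, pandas 2.3.3). Replicates differed by more than sampling noise, and all were counted. The labels put no processing batch between CT4 and CT0.

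The members and the 40 gene lists were chosen with earlier results of these data known, so no list count is independent support. Picked for naming were the largest changes in each direction (at most 15) and all clock list members. The rule also took the called members of each list or its most counted member, and the smallest p-values of the tissue difference among called transcripts. Not all of these are given in the text, and many of the most counted members of lists without a call are left out. Every other called transcript, OPN1MSW, PDE6G and the other values that missed the threshold were named after their values were seen. Intervals are at a 95% level. Standard errors were taken from the log2 fold change and the F value of the same edgeR test, and intervals from those errors. Neither is evidence separate from the p-value. At 3 libraries per group, the 95% interval of a change reached a median of 0.294 to either side on the log2 scale.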

Additional observations from a re-analysis of the deposited data

Results flagged for a closer look

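The CT4 minus CT0 change differed between retina and pineal gland for 11 of the transcripts examined, by edgeR's test of the difference over 36 libraries. Over all 16831 transcripts in that test, 58 (0.345%) passed. Of the 11, NDRG1 (difference 0.77), OSBPL1A (0.61), CRY1 (-0.64) and NR2E3 (-1.79) are among the 44 retina calls. These 4 also met a naming rule that used this same test, so the count of 11 is no independent result. The other 7 were called in the pineal gland and not in the retina. GNB3, a transducin beta subunit, changed by 0.14 in the retina and by -1.56 in the pineal gland, a difference of 1.70. NPAS2 changed by 0.43 in the retina and by -1.19 in the pineal gland (difference 1.63), and BHLHE40 by -0.30 in the retina and by -1.09 in the pineal gland (difference 0.79). DDC, an enzyme of serotonin and dopamine synthesis, changed by -0.39 in the retina and by 0.82 in the pineal gland (difference -1.21). PDK4, a kinase that restrains pyruvate oxidation, changed by 0.42 in the retina and by -0.96 in the pineal gland (difference 1.37). HLF, a D-box activator, changed by -0.18 in the retina and by -0.65 in the pineal gland (difference 0.47). The glucose transporter SLC2A1 changed by 0.08 in the retina and by -0.42 in the pineal gland (difference 0.50).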

How the results depend on the processing

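All 44 transcripts kept their direction under each of 16 alternatives, and no called value changed sign. Since the CT4 and CT0 libraries of all 44 do not overlap and each alternative used them again, this was nearly fixed in advance. It is no independent support for the calls. The count of calls depended on the test and on the libraries in the fit. It was 44 with RLE size factors, 42 with no filter on low counts, 40 with 36 libraries, and 51 or 48 with limma on FPKM (14 lower with a pseudocount of 0.1). DESeq2 called 113 (79 higher, 34 lower), including all 44. Sums per gene gave 72, of which 22 were lower. With only the 6 libraries 9 passed (8 higher, 1 lower), 6 of them among the 44. The labels do not say whether replicate numbers pair the samples. Pairing was examined on how each library departs from the mean of its group, not on the levels themselves. Between CT4 and CT0 libraries these departures correlated at -0.009, 0.012 and 0.021 for equal numbers and -0.030 to 0.020 for unequal numbers. Such values cannot exclude a shared bird or preparation round. A replicate block over 18 libraries gave 39 calls, and one over the 6 libraries gave 1 (1 higher, 0 lower), which is none of the 44. Leaving out 1 of the 6 libraries left 15 to 29 calls, 11 to 23 higher and 3 to 9 lower. Of the 44, 10 kept the call in each of these fits: BLIMP-1, NDRG1, ARNTL, OSBPL1A, PLCH2, PER3, NR1D2, APPL2, COTL1 and ENSGALT00000001533. Of these 10, NR1D2 and COTL1 did not pass in the 36-library fit, PLCH2, PER3, APPL2 and COTL1 did not pass with only the 6 libraries, and none passed with the 6 libraries and a replicate block. The tissue difference gave 58 calls, against 66 with RLE, 48 with no filter, 183 with DESeq2, 17 with the 12 libraries of both hours, 72 with a replicate block within tissue, and 40 to 63 without 1 library. The causes were not tested. With the 12 libraries OSBPL1A, NR2E3, CRY1, BHLHE40 and DDC did not pass. HLF did not pass without retina CT0 replicate 1 or pineal CT0 replicate 3, nor OSBPL1A without pineal CT0 replicate 2. With 3 libraries per group, the 95% interval reached a median of 0.294 to either side of a log2 change, which limits what smaller changes could be detected.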
